A study of Mus musculus with 18 samples.

Results

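The genes described here are 10 enzymes and regulators of de novo lipogenesis in mouse liver, followed across 6 groups of arrays. They were chosen by name, as the probe sets whose platform annotation gives the symbol Acly, Acaca, Acacb, Fasn, Elovl6, Scd1, Me1, Thrsp, Srebf1 or Pnpla3, and each gene is represented by its probe set with the highest mean. All 10 passed the filter on dim probe sets, so they are 10 of the 14694 genes tested. The values are MAS5 intensities, a summary of the probes of one probe set on a linear scale, and they order the same probe set across arrays but not different genes.

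The study measured liver RNA of C57BL/6 mice that were wild type (AIM+/+, called WT) or lacked AIM (AIM-/-, called AIM-KO), a protein secreted by macrophages and encoded by Cd5l. The WT and the AIM-KO mice were each given normal chow (0 weeks of high-fat diet), a high-fat diet (HFD) for 12 weeks or HFD for 20 weeks, and 3 arrays were made per group, 18 in all. The labels give neither age nor sex, so weeks of diet and age cannot be told apart. They call the arrays biological replicates without saying that each was a separate mouse, so p-values measure the spread between these samples.

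De novo lipogenesis is the synthesis of fatty acids from carbohydrate and other precursors in the cytosol. Citrate leaves the mitochondrion and is split by Acly, Acaca and Acacb carboxylate the resulting acetyl-CoA to malonyl-CoA, Fasn builds palmitate from it with NADPH, and Elovl6 and Scd1 lengthen and desaturate the product. In liver the pathway is known to be driven by insulin through SREBP-1, the product of Srebf1, and by carbohydrate through ChREBP, the product of Mlxipl. Malonyl-CoA also inhibits Cpt1a, the entry step of fatty acid oxidation in mitochondria.

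The labels were first checked on known genes. Cd5l read 702.6 to 1926.8 on the 9 WT arrays and 4 to 23.5 on the 9 AIM-KO arrays. Albumin (Alb), which marks hepatocytes, read at least 6138.8 on every array. Correlations between arrays were 0.955 to 0.980 within groups and 0.938 to 0.977 between them. Xist, the transcript of the inactive X chromosome of females, separated 4 arrays from the other 14. It read 2921.6 to 3049.7 on WT 20 weeks replicate 2 and the whole AIM-KO group at 20 weeks, against 7.8 to 26.2 elsewhere. Y-linked genes ran the opposite way, with Eif2s3y at 3.9 to 7.3 on these 4 arrays and 498.4 to 675.1 on the other 14. By these genes the 4 arrays read as female and the other 14 as male, which the labels do not state. Values at 20 weeks are therefore given with this in view. For the AIM-KO group the duration of the diet and high Xist, with the sex it marks, cannot be told apart except through the WT arrays.

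RefSeq promoter windows, from 250 bases before to 50 bases after an annotated start on GRCm38.p6, were held for 9 of the 10 genes in 12 windows. The 3 printed here belong to Acacb, whose change with diet was called in all 4 diet comparisons, to Fasn, the synthase, and to Thrsp, a lipogenic regulator whose change was called in none. They are written 5′ to 3′ in the direction of the gene, and capitals mark CCAAT on either strand, the box bound by NF-Y, a known partner of SREBP-1.
Acacb, chr5:114165268-114165567, plus strand: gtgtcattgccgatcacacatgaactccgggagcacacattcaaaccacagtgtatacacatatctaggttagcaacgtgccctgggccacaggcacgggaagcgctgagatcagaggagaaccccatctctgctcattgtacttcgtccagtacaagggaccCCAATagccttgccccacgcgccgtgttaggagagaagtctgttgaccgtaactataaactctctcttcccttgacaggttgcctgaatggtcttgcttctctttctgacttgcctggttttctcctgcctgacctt
Fasn, chr11:120824498-120824797, minus strand: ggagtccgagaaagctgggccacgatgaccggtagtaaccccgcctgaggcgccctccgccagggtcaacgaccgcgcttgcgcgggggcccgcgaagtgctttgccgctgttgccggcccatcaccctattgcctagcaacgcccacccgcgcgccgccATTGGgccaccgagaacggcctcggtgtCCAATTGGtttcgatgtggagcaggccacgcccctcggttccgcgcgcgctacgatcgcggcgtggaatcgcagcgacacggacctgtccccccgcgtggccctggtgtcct
Thrsp, chr7:97417501-97417800, minus strand: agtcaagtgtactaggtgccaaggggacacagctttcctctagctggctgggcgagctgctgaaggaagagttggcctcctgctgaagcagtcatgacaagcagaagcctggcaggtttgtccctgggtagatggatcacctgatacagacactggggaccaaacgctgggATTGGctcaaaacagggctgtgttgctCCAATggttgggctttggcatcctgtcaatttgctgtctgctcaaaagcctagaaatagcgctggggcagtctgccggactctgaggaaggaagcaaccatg
In the Acacb window CCAAT began at position -87 from the start. The Fasn window held 3 matches, at -90 on the opposite strand, at -62, and at -59 on the opposite strand, and the last pair overlapped. The Thrsp window held 2, at -79 on the opposite strand and at -52. Over all members, CCAAT was in windows of 7 of 9 genes (Acly, Acacb, Fasn, Me1, Thrsp, Srebf1 and Pnpla3) and in 8 of 12 windows, against 37.4% of all 32851 windows of the same length. The Sp1 box GGGCGG was in windows of 4 of 9 genes (Acly, Me1, Srebf1 and Pnpla3) and in 5 of 12 windows, against 35.7% of all windows. The E-box CACGTG and the sterol element TCACNCCAC, both searched on both strands, were in 0 of the 12 windows, against 7.15% and 1.24% of all windows. These are letter matches within 300 bases and say nothing of binding.

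On HFD most of the pathway read higher than on chow in both genotypes, and Acacb was the member that rose in every diet comparison. In 7 of the 10 genes (Acly, Acaca, Acacb, Fasn, Elovl6, Me1 and Pnpla3) the log2 change against chow was above 0 in all 4 diet comparisons. Of these 7, Acly, Elovl6 and Me1 were called in no diet comparison, and neither was Thrsp. The share of all genes above 0 in all 4 comparisons was not computed. Comparisons of the same genotype share their chow arrays, so their signs are not independent. Scd1 and Srebf1 fell in AIM-KO livers at 12 weeks. Changes are differences of log2(intensity + 3.3) with their standard error (SE), n = 3 arrays per group, and calls were made where limma's p, adjusted over all 14694 genes, was under 0.05.

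In WT livers at 12 weeks, limma called 1 of 10 members (Acacb, higher), where 5.14% of all genes were called and 3.52% were called higher. At an unadjusted p under 0.05 the count was 7 of 10, and it was 5, 9 and 5 in WT at 20 weeks and AIM-KO at 12 and 20 weeks. The share of all genes at an unadjusted p under 0.05 was not computed, here or for the later unadjusted counts. In WT at 20 weeks 3 of 10 were called, all higher (Acaca, Acacb and Pnpla3), against 14.5% of all genes and 8.72% higher. In AIM-KO livers at 12 weeks 5 of 10 were called, 3 higher (Acaca, Acacb and Fasn) and 2 lower (Scd1 and Srebf1), against 18.1% of all genes, 11.4% higher and 6.78% lower. At 20 weeks 1 of 10 was called (Acacb, higher), against 6.96% of all genes and 4.29% higher. The median change of the members was 0.81 and 0.77 in WT and 0.95 and 0.73 in AIM-KO at 12 and 20 weeks, beside medians of 0.00, -0.01, 0.04 and 0.04 over all genes. With the probe sets of each gene averaged, these member medians were 0.57, 0.41, 0.61 and 0.33. Without AIM-KO chow replicate 1 that of AIM-KO at 12 weeks was 0.63, and with a term for high Xist that of AIM-KO at 20 weeks was 1.29. The comparisons at 12 and 20 weeks share their chow arrays within a genotype. Without a variance trend in limma, the calls were Acacb alone in WT at 20 weeks and Acaca and Acacb in AIM-KO at 12 weeks. Those fits called 12.4% and 15.7% of all genes.

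**Figure D1:**
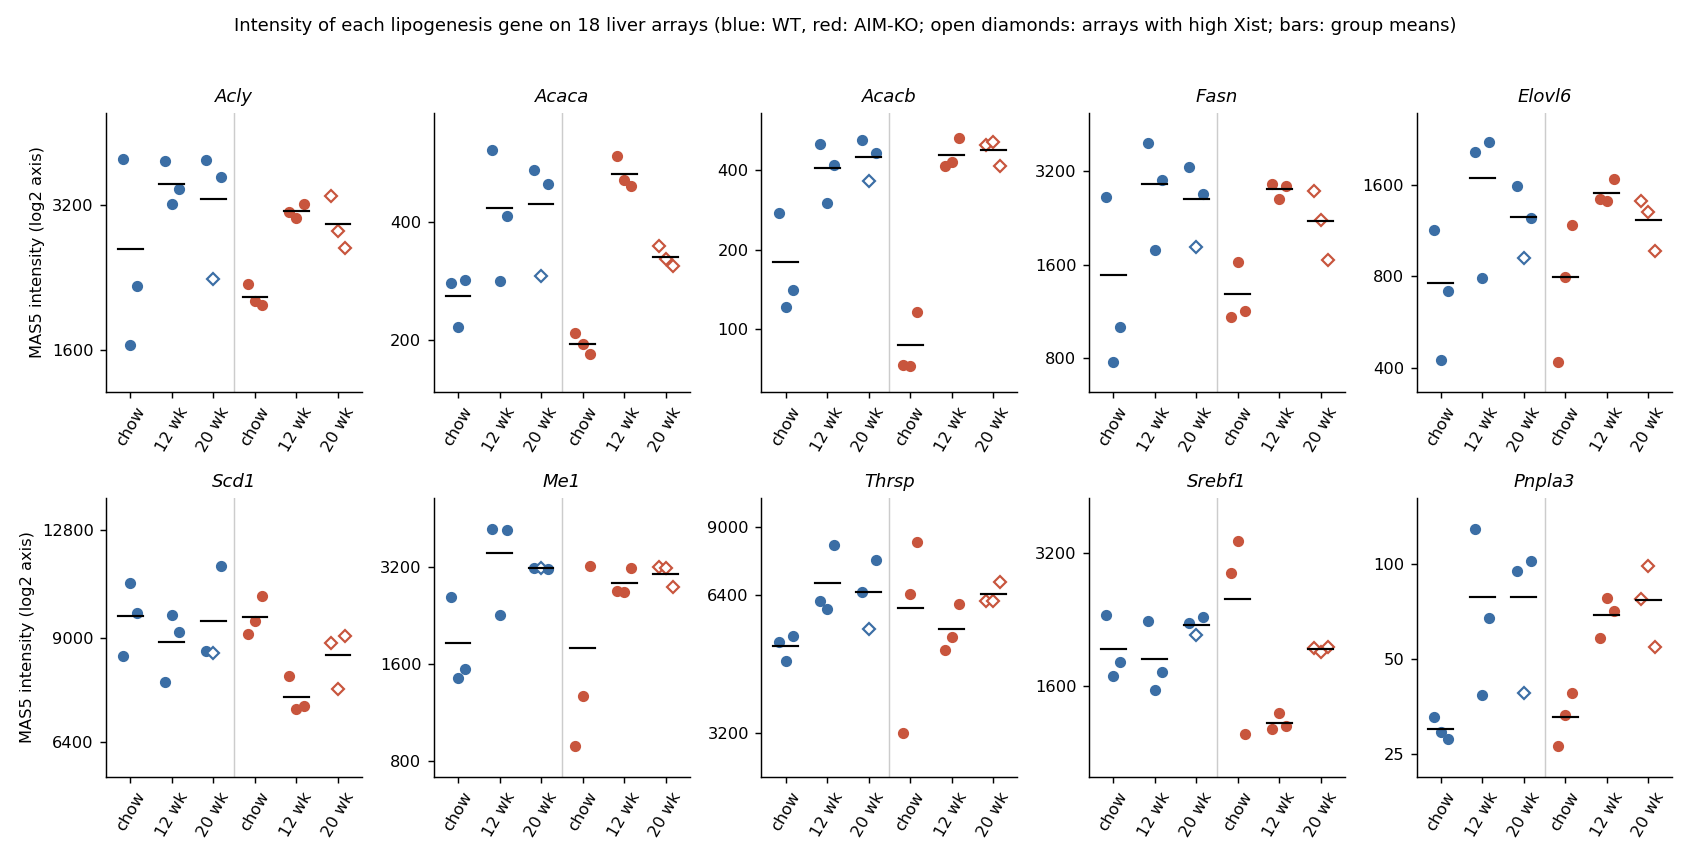
MAS5 intensity (log2 axis, a separate scale per gene) of the 10 lipogenesis genes on each of the 18 arrays, by diet within WT (blue) and AIM-KO (red); open diamonds are the 4 arrays with high Xist and bars are arithmetic group means. Acacb on HFD lies above its chow arrays in both genotypes (72.1 to 275.9 on chow, 299.4 to 528.6 on HFD), while Scd1 and Srebf1 are lowest on average in AIM-KO at 12 weeks.

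On the log2(intensity + 3.3) scale Acacb had the largest change of the members in each diet comparison, while by the ratio of mean intensities Pnpla3, described further on, had a larger one in WT. Acacb, the carboxylase at the outer mitochondrial membrane whose malonyl-CoA restrains Cpt1a, read 275.9, 121 and 141 on the 3 WT chow arrays, 504.9, 299.4 and 419.1 at 12 weeks and 523.1, 364.5 and 463.7 at 20 weeks. In AIM-KO livers it read 72.9, 72.1 and 115.7 on chow, 415, 431.5 and 528.6 at 12 weeks and 500.6, 512.6 and 415.9 at 20 weeks. Every HFD array was above every chow array of either genotype. In WT the mean was 2.27 times the chow mean at 12 weeks (log2 change 1.23 ± 0.26, adjusted p = 0.0072) and 2.51 times at 20 weeks (1.39 ± 0.26, adjusted p = 0.0011). In AIM-KO it was 5.27 times at 12 weeks (2.38 ± 0.26, adjusted p = 6.6e-06) and 5.48 times at 20 weeks (2.44 ± 0.26, adjusted p = 1.1e-05). The WT call at 12 weeks was lost without WT chow replicate 2 (1.0, adjusted p = 0.054) or without WT 12 weeks replicate 1 (1.06, adjusted p = 0.056), and the other 3 calls held whichever of their 6 arrays was left out.

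Acaca, the cytosolic carboxylase that supplies Fasn, rose with diet in AIM-KO at 12 weeks and in WT at 20 weeks. It read 279.6, 215.3 and 283.7 on WT chow, 612.2, 282.4 and 414.6 at 12 weeks and 546.7, 291.5 and 502.4 at 20 weeks. The AIM-KO arrays read 207.7, 195.1 and 183.4 on chow, 593.8, 514.1 and 494.7 at 12 weeks and 347.1, 322.5 and 308.4 at 20 weeks. In AIM-KO the 3 diets did not overlap and 12 weeks was highest, whereas in WT replicate 2 of each HFD group lay close to the chow arrays. The change in AIM-KO at 12 weeks was 1.43 ± 0.23 (2.73 times the chow mean, adjusted p = 0.00029), and it was called whichever of the 6 arrays was left out. In AIM-KO at 20 weeks it was 0.73 ± 0.23 (adjusted p = 0.064).

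The WT change of Acaca was 0.68 ± 0.23 at 12 weeks, not called (adjusted p = 0.094), and 0.74 ± 0.23 at 20 weeks, called (adjusted p = 0.037). When each array was left out in turn, the 20 week call survived only the loss of WT 20 weeks replicate 2 (1.02, adjusted p = 0.0031). It was lost without WT chow replicate 1 (0.79, adjusted p = 0.054), replicate 2 (0.61, adjusted p = 0.15) or replicate 3 (0.80, adjusted p = 0.061), and without WT 20 weeks replicate 1 (0.57, adjusted p = 0.17) or replicate 3 (0.63, adjusted p = 0.14). A second, dimmer probe set of Acaca (13.8 to 33.3) went the other way, with -0.52 ± 0.24 in WT at 20 weeks and -0.35 ± 0.24 in AIM-KO at 12 weeks, neither called.

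Fasn, which joins malonyl-CoA units into palmitate, rose in AIM-KO livers at 12 weeks and was higher without passing the test in the other comparisons. It read 2651.1, 778.8 and 1008.8 on WT chow, 3954.8, 1781.7 and 2992.9 at 12 weeks and 3312.9, 1820.9 and 2706 at 20 weeks. In AIM-KO it read 1084.4, 1639.7 and 1137.6 on chow, 2922.2, 2609.5 and 2864.5 at 12 weeks and 2773.1, 2227.8 and 1658.6 at 20 weeks. WT chow replicate 1 was as high as HFD arrays, so the WT groups overlapped, and the AIM-KO groups on HFD did not overlap chow.

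The change of Fasn was 1.11 ± 0.35 (adjusted p = 0.077) and 0.99 ± 0.35 (adjusted p = 0.069) in WT at 12 and 20 weeks. In AIM-KO it was 1.14 ± 0.35 (adjusted p = 0.031) and 0.78 ± 0.35 (adjusted p = 0.22). The AIM-KO call at 12 weeks was kept in 1 of the 6 fits with an array left out, and otherwise the adjusted p was 0.093 and 0.084 without AIM-KO chow replicate 1 or 3, and 0.09, 0.067 and 0.074 without AIM-KO 12 weeks replicate 1, 2 or 3. Without WT chow replicate 1, Fasn was called in WT for both durations, 1.64 for the shorter (adjusted p = 0.0034) and 1.51 for the longer (adjusted p = 0.0025). That array was the highest WT chow array for Fasn, so leaving it out raises the change by construction. The fits without the lowest WT chow array are not given for Fasn.

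Of the enzymes that feed the synthase, Acly, which splits citrate into acetyl-CoA, read 1637.5 to 3986.1 over all arrays and passed the test in no comparison. Its changes were 0.54, 0.40, 0.59 and 0.49 (SE 0.23) for WT at 12 and 20 weeks and AIM-KO at 12 and 20 weeks. In AIM-KO both HFD groups lay above the chow arrays (1987.2 to 2195.5 on chow, 2608.9 to 3338.8 on HFD). On WT chow replicate 1 read 3986.1, the highest Acly value of the series, and without it both WT changes were called, 0.90 for the shorter diet (adjusted p = 0.0099) and 0.76 for the longer (adjusted p = 0.012). Leaving out the highest chow array raises a change by construction. The fits without the lowest WT chow array are not given for Acly.

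Me1, the malic enzyme that yields NADPH for fatty acid synthesis, read 2572.4, 1448.9 and 1539.7 on WT chow and 888.2, 1269 and 3213.5 on AIM-KO chow. On HFD it lay in a narrow band at 20 weeks, from 3146.4 to 3185.9 in WT and from 2772.4 to 3191 in AIM-KO. In WT every array at 20 weeks was above every chow array, whereas AIM-KO chow replicate 3 was as high as the HFD arrays. The changes were 0.93, 0.82, 0.88 and 0.98 (SE 0.33) in the same order, with adjusted p from 0.072 to 0.11. Without AIM-KO chow replicate 3 the AIM-KO changes were 1.41 (adjusted p = 0.0008) and 1.51 (adjusted p = 0.00099). That array was the highest AIM-KO chow array for Me1, so its loss raises the changes by construction. The loss of replicate 1 (888.2), the lowest, would act the other way, and those fits are not given.

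Beyond palmitate, Elovl6, which lengthens it to stearate, read 1137.5, 424.3 and 715.5 on WT chow and 417.8, 797.2 and 1181.7 on AIM-KO chow. At 12 weeks it read 2050.9, 789.5 and 2200.8 in WT and 1431.4, 1415.6 and 1670.7 in AIM-KO, and at 20 weeks 922.1 to 1588.1 and 970.7 to 1409.5. Only the AIM-KO arrays at 12 weeks all lay above their chow arrays. The changes were 1.12, 0.80, 1.03 and 0.72 (SE 0.39) and none was called, although the mean at 12 weeks was 2.21 times chow in WT and 1.88 times in AIM-KO. Elovl6 was called in WT at 12 weeks without WT chow replicate 1 (1.47, adjusted p = 0.047) or without WT 12 weeks replicate 2 (1.59, adjusted p = 0.017), and in AIM-KO at 12 weeks without AIM-KO chow replicate 3 (1.37, adjusted p = 0.027). Each of these arrays was its group's extreme on the side that lowers the change, so its loss raises the change by construction. The fits without the opposite extremes are not given for Elovl6.

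Scd1, the desaturase that turns stearate into oleate, fell in AIM-KO at 12 weeks and was called in no other comparison. It read 8488.1, 10748 and 9762.4 on WT chow, 7789.6, 9705.9 and 9160.7 at 12 weeks and 8628, 8558.8 and 11362.8 at 20 weeks. In AIM-KO it read 9110.6, 9510.3 and 10299.5 on chow, 7949, 7133.9 and 7188 at 12 weeks and 8853.7, 7615.6 and 9041.2 at 20 weeks. All AIM-KO arrays on HFD were below all AIM-KO chow arrays, and the WT groups overlapped. The changes were -0.12 and -0.03 in WT and -0.38 ± 0.12 (adjusted p = 0.039) and -0.18 ± 0.12 (adjusted p = 0.45) in AIM-KO. The AIM-KO call at 12 weeks was kept in 1 of the 6 fits with an array left out, and otherwise the adjusted p was 0.082 and 0.12 without AIM-KO chow replicate 2 or 3, and 0.056, 0.13 and 0.11 without AIM-KO 12 weeks replicate 1, 2 or 3. With quantile normalization the change was -0.07 (adjusted p = 0.49).

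This probe set of Scd1 ranked between 7 and 43 from the top of each array and read 61.9% to 78.7% of the array's highest value. The second probe set of the gene, which is dimmer, read 2038.6, 826.6 and 837.2 on WT chow, 2711.2, 1808.1 and 2001.5 at 12 weeks and 2742.7, 1671.4 and 2201.9 at 20 weeks. In AIM-KO it read 1759.8, 1160.5 and 1740.2 on chow, 1948.8, 1760.5 and 2121.2 at 12 weeks and 1838.6, 2081.3 and 1428.8 at 20 weeks. With each of 26674 probe sets tested by itself, its changes were 0.93 ± 0.27 (adjusted p = 0.067) and 0.94 ± 0.27 (adjusted p = 0.031) in WT, and 0.34 and 0.21 in AIM-KO. The brighter and the dimmer probe set of Scd1 thus differed in sign in all 4 diet comparisons, and whether the brighter one is near the upper end of its range was not tested.

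**Figure D2:**
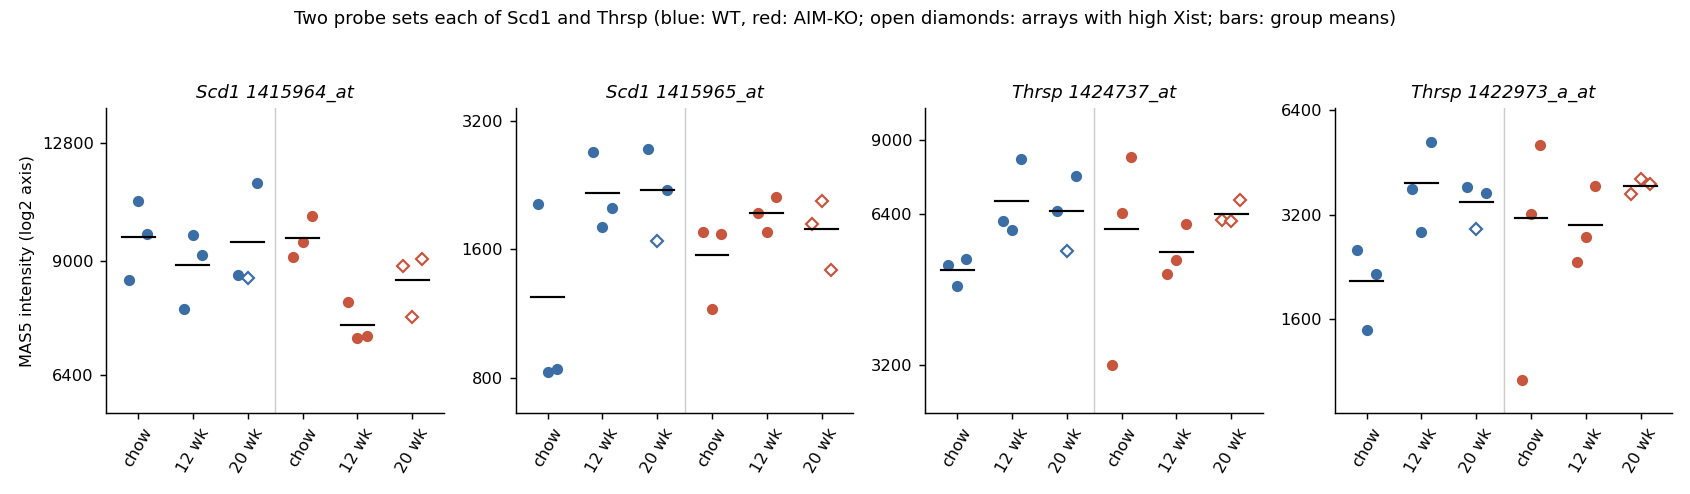
MAS5 intensity (log2 axis, a separate scale per panel) of the brightest and the second brightest probe set of Scd1 and Thrsp on the 18 arrays, by diet within WT (blue) and AIM-KO (red); open diamonds are arrays with high Xist and bars are arithmetic group means. The bright Scd1 probe set is flat or lower on HFD, and the dimmer one is higher on HFD in WT (means of 1234 on chow and 2174 at 12 weeks).

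The other members with several probe sets were read the same way. There were 23 probe sets for the 10 genes. The next brightest probe sets of Acly, Elovl6 and Me1 gave changes of the same sign as the brightest in all 4 diet comparisons. That of Acly was called in AIM-KO at 12 weeks (0.84 ± 0.27, adjusted p = 0.044), as was that of Me1 (1.03 ± 0.34, adjusted p = 0.047). A dim probe set of Acly (0.5 to 36.5) went the other way and was called lower in AIM-KO at 12 weeks (-1.99 ± 0.50, adjusted p = 0.011) and 20 weeks (-1.82 ± 0.50, adjusted p = 0.039). Another dim one of Acly (6.3 to 31.7) gave 0.34 and -0.37 in WT and 0.45 and 0.24 in AIM-KO, none called. The second probe set of Acacb (1.4 to 15.7) was below the filter and gave -0.29 and 0.02 in WT and 0.40 and -0.23 in AIM-KO, so the rise of Acacb was read on 1 probe set. The dimmest of Acly (0.3 to 8.3), also below the filter, gave -0.28 to -0.68. A dim one of Elovl6 (24.8 to 102.2) and one of Thrsp (45 to 195.2) were called nowhere, with changes from -0.41 to 0.43 and from -1.01 to -0.01.

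Among the regulators, Srebf1, whose product is the transcription factor SREBP-1, rose in no comparison. It read 2311.4, 1684.1 and 1811.3 on WT chow, 2242.3, 1566.2 and 1714.5 at 12 weeks and 2220.4, 2084 and 2287.9 at 20 weeks. In AIM-KO it read 2885.8, 3414 and 1240.4 on chow, 1274.6, 1386.1 and 1298.5 at 12 weeks and 1950.2, 1908.9 and 1955.5 at 20 weeks. The AIM-KO chow arrays ranged widely, and replicate 3 lay below the 12 week arrays that the other two exceeded. Srebf1 fell in AIM-KO at 12 weeks (-0.80 ± 0.24, adjusted p = 0.028), and the other changes of Srebf1, none called, were -0.25 in AIM-KO at 20 weeks and -0.08 and 0.20 in WT.

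The fall of Srebf1 in AIM-KO at 12 weeks was called in 1 of the 6 fits with an array left out. Without AIM-KO chow replicate 3 it was -1.25 (adjusted p = 2.1e-05), and Srebf1 was then also called lower at 20 weeks (-0.69, adjusted p = 0.0065). Without AIM-KO chow replicate 1 or 2 it was -0.64 (adjusted p = 0.12) and -0.52 (adjusted p = 0.17). Leaving out AIM-KO 12 weeks replicate 1, 2 or 3 gave an adjusted p of 0.085, 0.061 and 0.068. With quantile normalization the change of Srebf1 was -0.71 (adjusted p = 0.053), and with only the 2 groups in the fit the adjusted p was 0.12.

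Thrsp, the thyroid hormone responsive protein that promotes lipogenesis, read 5063, 4590.4 and 5211.7 on WT chow, 6200.4, 5950.8 and 8229.7 at 12 weeks and 6482.7, 5393 and 7613.4 at 20 weeks. On AIM-KO chow it ranged from 3203.7 to 8325.9, a span that held all 6 AIM-KO arrays on HFD. All WT arrays on HFD lay above the WT chow arrays, but the changes of 0.44 and 0.38 (SE 0.23) did not pass the test (adjusted p = 0.32 for both). In AIM-KO they were -0.05 and 0.21. The second probe set gave 0.93 and 0.78 in WT (SE 0.37) and 0.17 and 0.58 in AIM-KO, with adjusted p from 0.19 to 0.83.

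Pnpla3, a lipid droplet hydrolase and a known target of SREBP-1 and ChREBP in liver, rose in WT at 20 weeks. It read 32.8, 29.4 and 28 on WT chow, 129.3, 38.6 and 67.7 at 12 weeks and 95, 39.1 and 102.2 at 20 weeks. In AIM-KO it read 26.5, 33.2 and 39 on chow, 58.4, 78 and 71.2 at 12 weeks and 77.7, 98.3 and 54.6 at 20 weeks. In both genotypes every HFD array was above every chow array of that genotype, with replicate 2 the lowest of both WT groups on HFD. The mean on HFD was 2.61 and 2.62 times chow in WT and 2.1 and 2.34 times in AIM-KO.

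The change of Pnpla3 was 1.14 ± 0.35 (adjusted p = 0.071) and 1.19 ± 0.35 (adjusted p = 0.03) in WT, and 1.01 ± 0.35 (adjusted p = 0.057) and 1.12 ± 0.35 (adjusted p = 0.066) in AIM-KO. That WT call at 20 weeks likewise survived only the loss of WT 20 weeks replicate 2 (1.61, adjusted p = 0.003). The adjusted p was 0.051, 0.081 and 0.089 without WT chow replicate 1, 2 or 3, and 0.13 and 0.14 without WT 20 weeks replicate 1 or 3.

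**Figure D3:**
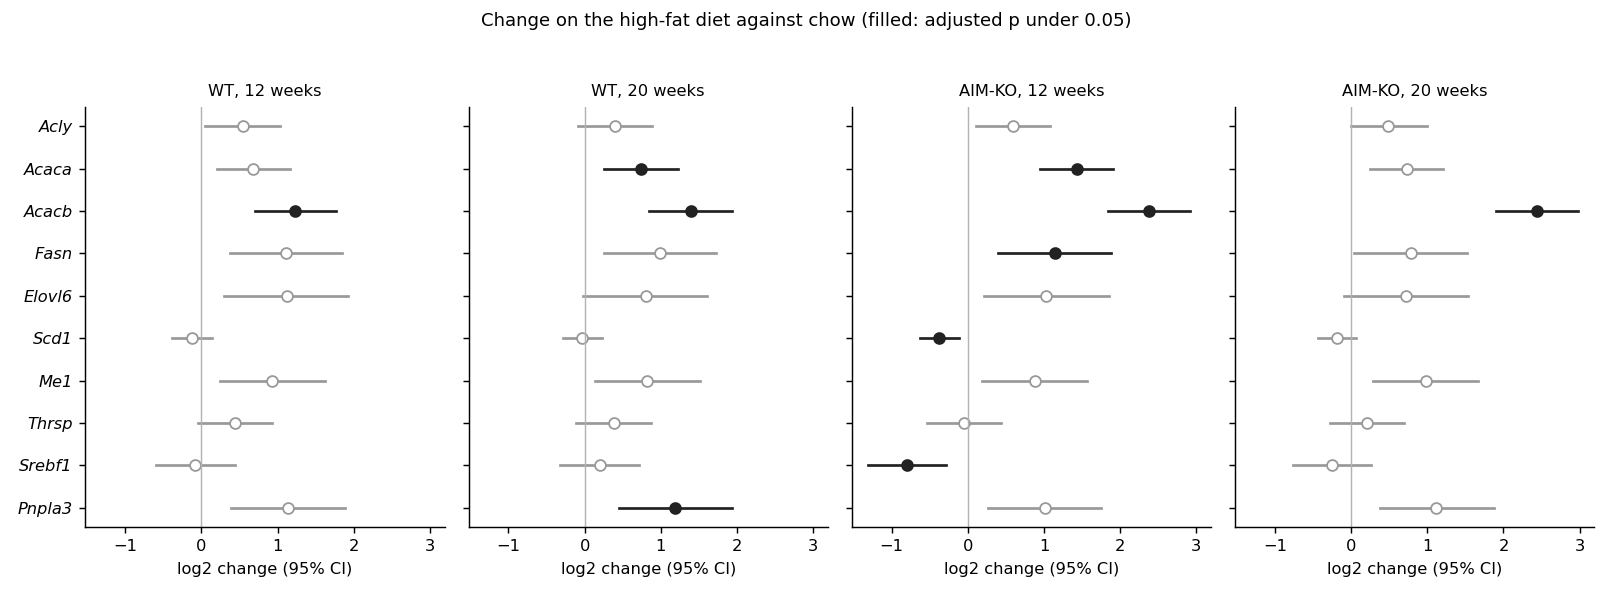
Log2 change of each lipogenesis gene on HFD against chow of the same genotype (x axis), with its 95% confidence interval from limma; filled black points have an adjusted p under 0.05 and open grey points do not. Acacb is filled in all 4 panels (1.23 and 1.39 in WT, 2.38 and 2.44 in AIM-KO), and Scd1 and Srebf1 are filled to the left of 0 in AIM-KO at 12 weeks.

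The spread within groups was shared by many members. WT chow replicate 1 was the highest of its group for 7 of 10 members and replicate 2 the lowest for 8. WT 12 weeks replicate 2 was the lowest for 9 of 10, and WT 20 weeks replicate 2, the WT array with high Xist, also for 9 of 10. Over all genes these arrays were the highest or lowest of their group for 32.9% (highest, WT chow replicate 1), 30.3% (lowest, WT chow replicate 2), 33.2% and 41.9% (lowest, the replicates 2 on HFD). Without WT chow replicate 1, 4 members were called in WT at 12 weeks (Acly, Acacb, Fasn and Elovl6), against 4.75% of all genes. Leaving out WT 12 weeks replicate 2 gave 6 called members (Acaca, Acacb, Fasn, Elovl6, Me1 and Pnpla3), against 5.09% of all genes. Without WT 20 weeks replicate 2, 4 members were called at 20 weeks (Acaca, Acacb, Fasn and Pnpla3), with Fasn at 1.23 (adjusted p = 0.036). That fit called 16.9% of all genes. These 3 arrays were those on which most members were extreme, so added calls were favoured in advance. The WT 12 week member median was 1.04 and 1.09 without WT chow replicate 1 or WT 12 weeks replicate 2. It was 0.66 and 0.61 without WT chow replicate 2 or WT 12 weeks replicate 1, where the Acacb call was lost. Those latter fits called 2.84% and 2.29% of all genes.

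For AIM-KO at 20 weeks, where all arrays had high Xist, a term for high Xist estimated from the WT arrays gave changes of 2.87 for Acacb (adjusted p = 0.0049), 1.57 for Acaca (adjusted p = 0.031) and 2.39 for Pnpla3 (adjusted p = 0.038). That term rests on WT 20 weeks replicate 2 alone. The ratio of 3′ to 5′ actin probes, which rises as RNA breaks down, was 3.47 ± 0.855 (SD, n = 3) in WT at 20 weeks and 2.67 ± 0.125 on WT chow. With a term for it, Acaca (0.72, adjusted p = 0.098) and Pnpla3 (1.15, adjusted p = 0.09) were no longer called in WT at 20 weeks, Acacb still was, and Me1 became so (1.17, adjusted p = 0.036). WT 12 weeks replicate 2, the lowest of its group for 9 of 10 members, had a ratio of 3.79, against 2.69 and 2.52 for replicates 1 and 3. WT 20 weeks replicate 2, also lowest for 9 of 10, had 2.54, against 3.64 and 4.22 for replicates 1 and 3. The part of RNA quality in the spread of the members was not tested.

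Markers of some cell types moved with the diet as well. Over all genes 1.63%, 5.77%, 6.78% and 2.67% were called lower in WT at 12 and 20 weeks and AIM-KO at 12 and 20 weeks. The shares called higher were 3.52%, 8.72%, 11.4% and 4.29%, and the marker counts stand beside these. In AIM-KO at 12 weeks, 7 of 9 hepatocyte markers fell (median -0.49), their summed intensity being 41151 to 46160 against 59307 to 64093 on chow. Scd1 and Srebf1 fell in that comparison. In the other diet comparisons 1, 1 and 0 of the 9 fell (WT at 12 and 20 weeks, AIM-KO at 20 weeks). Of the macrophage markers 4 of 6 rose in WT at 20 weeks and in AIM-KO at 12 weeks and 0 in the others, and of the stellate cell and fibroblast markers 3 to 5 of 5 rose in each. Of 4 cholangiocyte markers 0 were called in any diet comparison. Among 4 endothelial markers 1 rose in AIM-KO at 12 weeks and 0 were called in the others. In bulk RNA fewer cells of a type and less RNA per cell cannot be told apart, and the part of these markers in the changes of the lipogenesis genes was not tested. The highest intensity per array was 10002.9 to 10685.1 in AIM-KO at 12 weeks and 12270 to 16640 on AIM-KO chow. Most hepatocyte markers are bright, but the dimmest, Ass1, also read lower there (means of 58.5 and 185). The part of array scale in the marker changes was not tested.

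Adipocytes express the same pathway. The summed intensity of 5 adipocyte markers on the array was 173 to 195 on WT chow, 418 to 521 at 12 weeks and 336 to 1083 at 20 weeks, and 123 to 162, 670 to 832 and 339 to 443 in AIM-KO. Of the 3 that passed the filter 1 was called in each diet comparison, higher, beside the shares of all genes given above. Most of the sum was Fabp4, a fatty acid carrier that macrophages make too (mean of 117 on WT chow and 424 at 12 weeks). The defining markers Adipoq and Lep read at most 8.9 and 9.6 on any array.

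AIM-KO and WT livers were then compared on the same diet, which asks whether the lipogenesis genes differ without AIM. No member was called by limma on chow, at 12 weeks or at 20 weeks (0 of 10 each), where 0.0272%, 0.0749% and 0.157% of all genes were called. The last share was 6.5% (950 genes) without WT 20 weeks replicate 2, the WT array with high Xist, and the 12 week share was 0.711% without WT 12 weeks replicate 1, with 0 of 10 members called in either fit. In the former fit all AIM-KO arrays at 20 weeks had high Xist and no WT array did. Genotype and high Xist, with the sex it marks, cannot be told apart in it. At an unadjusted p under 0.05 the counts were 1, 0 and 0. The member with the smallest p was Acacb on chow, 86.9 ± 24.9 in AIM-KO and 179 ± 84.3 in WT (mean ± SD, n = 3). Its highest AIM-KO array (115.7) lay just below its lowest WT array (121), and the log2 difference was -0.96 ± 0.26 (95% interval -1.49 to -0.42, adjusted p = 0.33 in limma). Without WT chow replicate 1 it was -0.60 (adjusted p = 0.6).

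On HFD Acacb differed between the genotypes by 0.19 (interval -0.35 to 0.73) at 12 weeks and 0.09 (interval -0.45 to 0.63) at 20 weeks. For Fasn the genotype differences were -0.01, 0.02 and -0.22 on chow, at 12 and at 20 weeks, with intervals that reached from -0.97 to 0.76 over the 3 diets. Srebf1 differed by 0.26, -0.46 and -0.18 and Scd1 by 0.00, -0.25 and -0.15, none called. On HFD the Srebf1 arrays of AIM-KO lay below all those of WT at 12 weeks and at 20 weeks, without overlap.

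Whether the diet effect itself differed between genotypes was tested as an interaction. No member was called at 12 or 20 weeks (0 of 10 each), where 0.00681% and 0% of all genes were, and the counts at an unadjusted p under 0.05 were 3 and 1. Acacb had the largest difference among the members at both times, with a diet effect larger in AIM-KO by 1.15 ± 0.36 at 12 weeks and by 1.05 ± 0.36 at 20 weeks (adjusted p = 0.36 for both). Both share the chow arrays, and without WT chow replicate 1 the differences were 0.80 and 0.69. At 12 weeks the difference was 0.75 ± 0.32 for Acaca (adjusted p = 0.48) and -0.73 ± 0.34 for Srebf1 (adjusted p = 0.53). Without AIM-KO chow replicate 3 that of Srebf1 was -1.17 (adjusted p = 0.078). That array was the lowest AIM-KO chow array for Srebf1, so its loss enlarges the difference by construction.

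**Figure D4:**
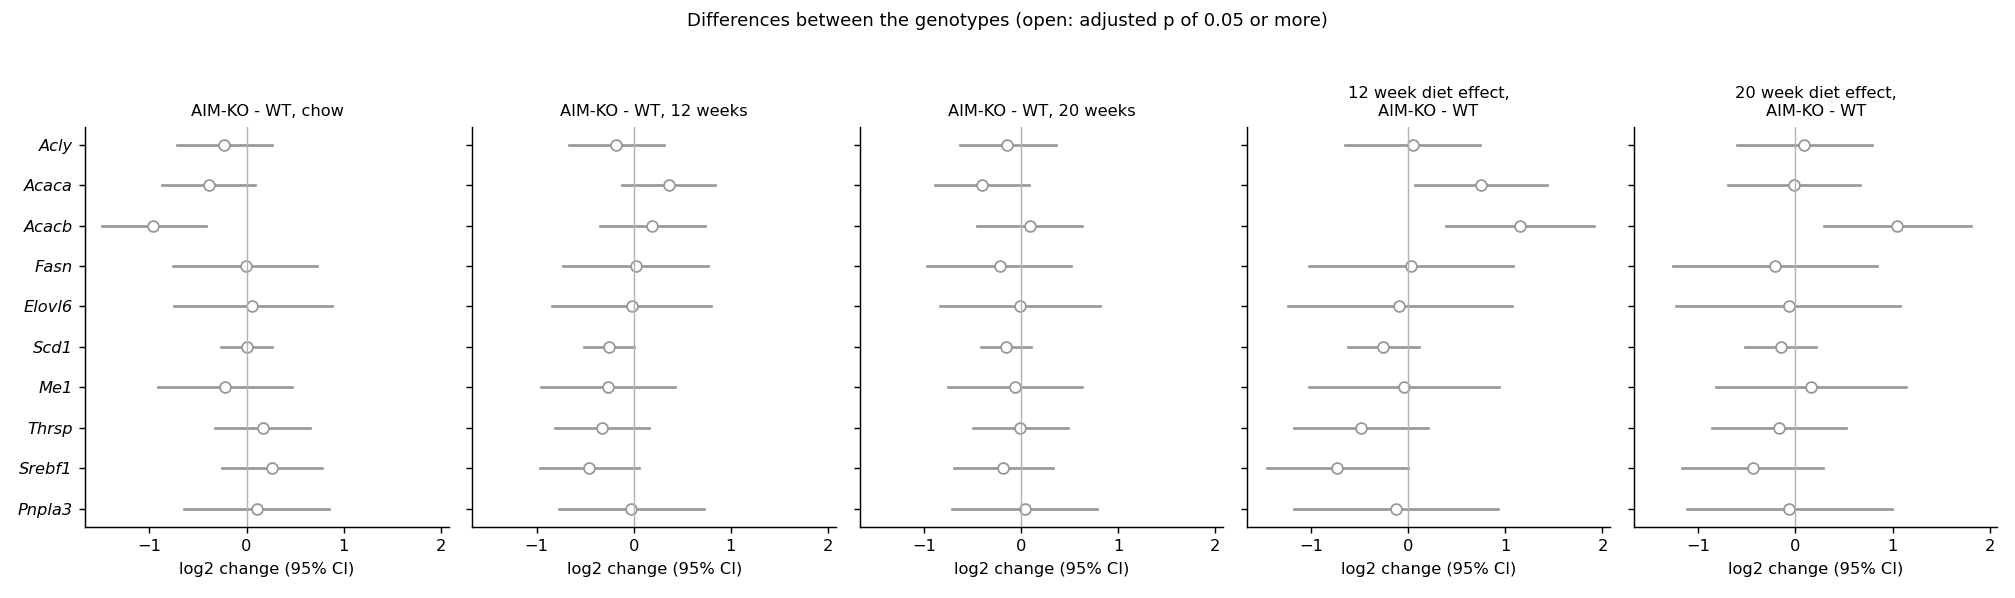
Log2 difference of each lipogenesis gene between AIM-KO and WT on the same diet (left 3 panels) and difference of the diet effect between the genotypes (right 2 panels), with 95% confidence intervals from limma; all points are open because no adjusted p was under 0.05. The intervals of Acacb exclude 0 on chow (-0.96) and for both diet effects (1.15 and 1.05) before adjustment over all genes.

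The longer diet was set against the shorter within each genotype. In limma 0 of 10 members were called in WT and 0 in AIM-KO, where 0.0204% and 3.44% of all genes were. The counts at an unadjusted p under 0.05 were 0 and 2. In AIM-KO, Acaca was 326 ± 19.6 at 20 weeks and 534 ± 52.5 at 12 weeks (-0.70 ± 0.23, adjusted p = 0.11), and Srebf1 was 1938 ± 25.5 and 1320 ± 58.7 (0.55 ± 0.24, adjusted p = 0.26). Neither pair of groups overlapped. In AIM-KO all arrays at 20 weeks had high Xist and none at 12 weeks did, so duration and high Xist cannot be told apart here. With a term for high Xist, which rests on WT 20 weeks replicate 2 alone, 0.034% of all genes were called in AIM-KO. In WT the 10 changes ran from -0.32 (Elovl6) to 0.27 (Srebf1).

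Ordered by group mean, the lowest 2 groups were the chow groups for Acly, Acaca, Acacb, Fasn, Elovl6, Me1 and Pnpla3. Neighbours in that order mostly overlapped. How often neighbouring groups were free of overlap over all genes was not counted, so the counts below do not set these genes apart. For Fasn, Acly, Elovl6, Scd1 and Thrsp 0 of 5 neighbouring pairs were free of overlap. For Acaca 2 of 5 were, AIM-KO chow to WT chow and WT chow to AIM-KO at 20 weeks. For Acacb 2 of 5 were also, AIM-KO chow to WT chow and WT chow to WT at 12 weeks. For Srebf1 2 of 5 were, AIM-KO to WT at 12 weeks and AIM-KO to WT at 20 weeks. For Me1 and Pnpla3 1 of 5 was, the step from the higher chow group to AIM-KO at 12 weeks.

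The genes whose 6 group means were most like those of Fasn were found by the root mean square difference of centred log2 means over the 6 groups. They were Chrna4 (0.04), Cdca8 (0.05), Dtl (0.07), Gbe1 (0.08) and Dnajc9 (0.08), where the median over all 14693 other genes was 0.52. Gbe1 read 760, 1516 and 1510 on average in WT and 812, 1483 and 1346 in AIM-KO on chow, at 12 and at 20 weeks. Of the members, Elovl6 was nearest (0.08, rank 6), then Me1 (0.16, rank 76), Pnpla3 (0.17, rank 103) and Acaca (0.17, rank 106). Acacb (0.52), Scd1 (0.58) and Srebf1 (0.66, rank 12425) were at or beyond the median. The 6 means share their arrays and this is a description.

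The rest of the pathway was read from 4 lists with 67 genes, 61 of them tested. Over all genes 3.52%, 8.72%, 11.4% and 4.29% were called higher and 1.63%, 5.77%, 6.78% and 2.67% lower (WT at 12 and 20 weeks, then AIM-KO), with the median changes given for the members, and the counts of each list stand beside these. Of 11 tested genes that supply precursors and NADPH, 0, 1, 4 and 0 rose in WT at 12 and 20 weeks and in AIM-KO at 12 and 20 weeks, and 0 fell. The median changes were 0.08, -0.04, 0.26 and 0.07. Pgd, an NADPH-yielding dehydrogenase of the pentose phosphate pathway, rose in WT at 20 weeks (0.91 ± 0.25, adjusted p = 0.021) and in AIM-KO at 12 weeks (1.46 ± 0.25, adjusted p = 0.00055). Pklr, the liver pyruvate kinase and a ChREBP target, rose in AIM-KO at 12 weeks (0.85 ± 0.28, adjusted p = 0.042), as did Taldo1 (0.42 ± 0.13), a pentose phosphate enzyme. Tkt, another, rose there by 0.37 ± 0.12.

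Of 28 genes of SREBP and ChREBP control, 1, 1, 2 and 2 rose and 3, 4, 4 and 1 fell in the same order, with medians of -0.14, -0.17, -0.10 and -0.05. Mlxipl, which encodes ChREBP, fell in WT at 12 weeks (-0.88 ± 0.17, adjusted p = 0.005) and 20 weeks (-1.08 ± 0.17, adjusted p = 0.00038), and its changes in AIM-KO were -0.46 and -0.39, not called. Scap, which escorts SREBP to the Golgi for cleavage, fell in WT at both times (-0.65 and -0.76) and in AIM-KO at 12 weeks (-0.70). Insig2, which holds the SREBP and Scap complex in the endoplasmic reticulum, rose in AIM-KO at 12 weeks (1.67 ± 0.25, adjusted p = 0.00017) and 20 weeks (1.02 ± 0.25, adjusted p = 0.018), and its WT changes were 0.39 and 0.05. Pparg, a nuclear receptor that drives fat storage, rose in all 4 comparisons (0.91 to 1.36). Prkaa2, a catalytic subunit of AMPK, the kinase that inhibits acetyl-CoA carboxylase, fell in all 4 (-0.38 to -0.59).

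The list of elongation, desaturation and glycerolipid synthesis held the most calls, with 5, 9, 8 and 6 of 15 genes higher and 1 lower in each comparison, and medians of 0.63, 0.60, 0.50 and 0.51. Mogat1, which makes diacylglycerol, rose by 3.09, 3.51, 3.26 and 2.84 (SE 0.38), and Fads2, a desaturase of polyunsaturated fatty acids, by 1.78, 1.83, 1.29 and 1.60 (SE 0.14). Fads1, its partner desaturase, rose by 0.80 to 1.06 over the 4 comparisons. Elovl3, an elongase of saturated and monounsaturated fatty acids, was the 1 gene that fell in each (-1.38 and -2.92 in WT, -1.42 and -2.09 in AIM-KO). Scd2, a second desaturase, rose in WT at 20 weeks (2.43 ± 0.55, adjusted p = 0.0057) and in AIM-KO at 12 weeks (2.64 ± 0.55, adjusted p = 0.0024). Without WT 20 weeks replicate 2, 10 of the 15 rose in WT at 20 weeks and 1 fell, in a fit that called 16.9% of all genes.

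Of 7 genes that use malonyl-CoA or oppose lipogenesis, 2, 2, 1 and 2 rose and 0 fell. Cpt1a, the enzyme that malonyl-CoA inhibits, rose in WT at 12 weeks (0.77 ± 0.17, adjusted p = 0.0092) and 20 weeks (0.78 ± 0.17, adjusted p = 0.0037). Its changes in AIM-KO were 0.28 (adjusted p = 0.28) and 0.52 (adjusted p = 0.068). Cpt2, a later enzyme of fatty acid import, rose in AIM-KO at both times (0.39 and 0.51). Acadl, a dehydrogenase of fatty acid oxidation, rose in WT at both times (0.34 and 0.37) and in AIM-KO at 20 weeks (0.52 ± 0.09). No gene of the 4 lists was called for a difference between the genotypes or between their diet effects.

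**Figure D5:**
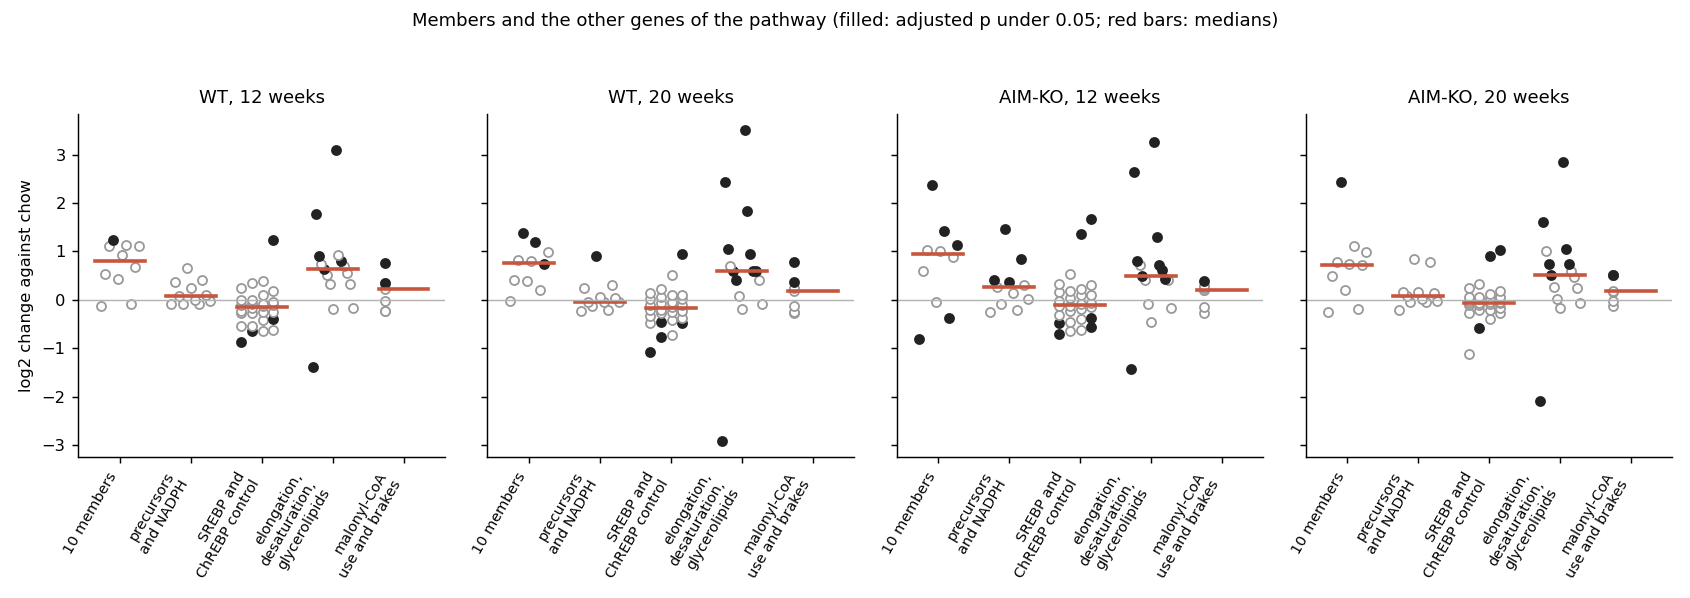
Log2 change on HFD against chow (y axis) of the 10 lipogenesis genes and of the tested genes of 4 pathway lists, in each diet comparison; filled points have an adjusted p under 0.05 in limma, horizontal shifts only separate points, and red bars are medians. The list of elongation, desaturation and glycerolipid synthesis holds points from -2.92 (Elovl3) to 3.51 (Mogat1), and the medians of the members lie between 0.73 and 0.95.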

How the data were processed

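Liver RNA was measured on 18 Affymetrix arrays of the 6 groups. The deposited values are intensities on a linear scale, MAS5 per the submitters' processing notes, version not given in the sources used here, and their 2% trimmed mean was 100 on each array. Of 45101 probe sets, the 34945 with 1 gene in the platform annotation were used, with symbols updated through the entrez id. Intensities were taken to log2(value + 3.3), 3.3 being their 20th percentile, with no further normalization, so changes of dim genes are understated. Probe sets above the 40th percentile of the array on at least 3 arrays were kept, and the brightest stood for each of 14694 genes. 6 group means were fitted to all arrays with limma 3.58.1 (R 4.3.3, variance trend, 18.2 degrees of freedom), with 11 comparisons, 2-sided tests and Benjamini-Hochberg adjustment over all genes. Precision is limited by the number of arrays, with a median SE of 0.22 for 3 against 3 arrays.

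The members and lists were chosen with earlier results of these data known. Named genes were the 10 members, up to 3 called genes with the largest change per list and comparison, the listed markers and the 5 genes nearest to Fasn. Genes so named are followed across comparisons, and Fads1 and Tkt were named after their values were seen. Some listed genes are not reported here. Gene coordinates are not printed, as no source used here names the annotation's build. Alternatives were other pseudocounts, quantile normalization, other dim filters, averaging the probe sets of a gene, only the groups compared, an untrended variance, a replicate block, terms for high Xist and the actin ratio, and leaving out arrays. Testing every probe set, or the second brightest of each member, was chosen after seeing the data.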

Additional observations from a re-analysis of the deposited data

How the results depend on the processing

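The Acacb calls at 20 weeks in WT and in AIM-KO at both times held under every alternative run, but Acacb has 1 probe set past the filter, so the 2 alternatives on probe sets could not change them. The number of members called in WT at 12 weeks, 1 as reported, was 3 with a replicate block, 3 with a term for high Xist, 2 without the 4 arrays with high Xist and 0 to 6 when each array was left out. In that order, 5.78%, 6.64%, 5.55% and 2.29% to 5.09% of all genes were called, against 5.14% as reported. In WT at 20 weeks, 3 as reported, the member count was 1 without a variance trend and 1 to 4 when each array was left out. Such fits called 12.4% and 9.61% to 16.9% of all genes, against 14.5% as reported. In AIM-KO at 12 weeks, 5 as reported, the member count was 7 with only the groups compared, 7 with the actin term, 4 with quantile normalization (all higher), 2 without a variance trend and 2 to 5 when each array was left out. Shares of all genes called were 16%, 18.5%, 16.5%, 15.7% and 11.8% to 16.1%, against 18.1% as reported. In AIM-KO at 20 weeks, 1 as reported, the member count was 4 with only the groups compared, 2 with the block, 3 with the Xist term and 1 to 3 when each array was left out. Of all genes 4.61%, 7.63%, 1.34% and 3.74% to 6.95% were called in these fits, against 6.96% as reported. This comparison could not be fitted without the 4 arrays with high Xist. For 20 against 12 weeks in AIM-KO, 0 as reported, the member count was 2 with only the groups compared and 1 with the block. Those fits called 9.18% and 4.06% of all genes, against 3.44% as reported. With the second brightest probe set of each member, Acaca turned to -0.52 in WT at 20 weeks (adjusted p = 0.16) and -0.35 in AIM-KO at 12 weeks (adjusted p = 0.37), and Scd1 to 0.34 in AIM-KO at 12 weeks (adjusted p = 0.46). The counts of 0 between genotypes and for the interactions were 0 in every fit run, where at most 6.5% and 2.28% of all genes were called. Both of these shares came without WT 20 weeks replicate 2, where genotype and high Xist cannot be told apart at 20 weeks. Why these values moved was not tested. Changes that were not called changed sign in 62 fits of alternatives and in 99 that left out an array.

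Arrays of different groups share only a replicate number. The correlation of their deviations from the group means was -0.087 to 0.230 for the same number (median 0.039, 45 pairs). For different numbers it was -0.191 to 0.124 (median -0.016, 90 pairs). Of 18 arrays, 11 correlated best with their own number, and whether the number marks a shared batch or pairing was not tested.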
